A study of Mus musculus with 16 samples.

Results

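The genes described here are 10 FGF and ERK feedback genes in mouse embryonic stem cells (ESCs): the ligand Fgf4, the receptor Fgfr1, the feedback inhibitors Spry2, Spry4, Spred1 and Dusp6, the transcription factors Etv4 and Etv5, and the immediate early genes Egr1 and Fos. They are named members of the pathway, chosen with earlier results of these data known, and all 10 were found among the 46983 genes of the count table and among the 12805 genes tested. The cells were 46C ESCs of strain 129Ola, a line that carries GFP at the Sox1 locus, grown with leukaemia inhibitory factor. They were transfected for 48 hr with an siRNA against RAM (gene Ramac), the activating subunit of the mRNA cap methyltransferase RNMT, or with a non-targeting control siRNA, and every culture was given cycloheximide for 10 min before lysis. A part of each cytoplasmic extract (10%) was kept as input and the polysome fractions of a sucrose gradient were pooled from the rest, so that 4 groups of 4 RNA-seq libraries were obtained: input control, input RAM siRNA, polysome control and polysome RAM siRNA. All 4 groups came from the same line, and the labels name a single RAM siRNA reagent and a single control. With a single reagent, the loss of RAM and any other effect of the siRNA cannot be told apart.

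In ESCs, FGF4 is secreted by the cells themselves and binds FGFR1, which acts through FRS2, GRB2 and SOS on RAS, and RAS in turn on RAF, MEK1/2 and ERK1/2. Active ERK enters the nucleus and raises transcription of immediate early genes such as Egr1 and Fos and of the ETS factors Etv4 and Etv5, and it also raises its own inhibitors: DUSP6 removes phosphate from ERK, and Sprouty and Spred proteins block the steps from the receptor to RAF. The mRNA levels of these inhibitors are widely used as a readout of ERK activity, and in ESCs this pathway moves cells out of the pluripotent state.

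Libraries held 16697205 to 19140331 counts in input control, 16861145 to 18349198 in input RAM siRNA, 17845867 to 19755690 in polysome control and 16647523 to 20147833 in polysome RAM siRNA. The 10 genes had 676 to 9021 counts in every library, so counting error was small beside the spread between libraries. Levels are given as CPM, the counts of a gene relative to the total of its library after TMM scaling, with the SD of 4 libraries. As CPM is a share of a library, fewer transcripts per cell and fewer cells of a kind cannot be told apart.

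Ramac itself was at 10.6, 10.1, 10.8 and 11.6 CPM in input control replicates 1 to 4 and at 3.11, 2.67, 3.11 and 3.17 CPM in input RAM siRNA. The groups were far apart, and the fall was 1.84 on the log2 scale (SE 0.11, adjusted p = 7.24e-06 by the quasi-likelihood test of edgeR with Benjamini-Hochberg adjustment over the 12805 genes, used for every adjusted p below). In polysomes Ramac was at 6.61 to 14.6 CPM in control and at 0.287 to 2.61 CPM in RAM siRNA libraries, again without overlap (log2 fold change -2.52, SE 0.55, adjusted p = 0.128, and 2.36e-05 with the replicate block described next).

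Of the 10 ESC markers examined, all 10 passed the filter on low counts, with the sum of their CPM at 4991 to 5341 in input control and 4154 to 4775 in input RAM siRNA. Tdgf1, a co-receptor of NODAL, was the most abundant of them. Nanog, Esrrb and Dppa5a passed the threshold, all lower with RAM siRNA, and with the replicate number as a block 9 of the 10, all but Sox2, were lower. Of all genes tested, 5.94% were called lower in the main fit and 19.0% with the block. Polysome libraries fell apart by replicate number: on the axis that held 68.4% of their variance, replicates 1 and 2 of both siRNAs lay between -57.1 and -6.74 and replicates 3 and 4 between 14.9 and 37.9. RAM siRNA replicate 2 stood farthest out, and the summed CPM of the 10 primitive endoderm markers was 813 there against 128 to 218 in the other RAM siRNA polysome libraries, mostly from Lama1 (477 CPM), a basement membrane laminin. In polysome control this sum was also highest in replicate 2, at 443 CPM against 156 to 240 CPM in the other control libraries. In input, RAM siRNA replicate 4 stood apart from the other RAM siRNA libraries, at -0.25 on the axis that held 43.1% of the variance against 11.01 to 14.4. Libraries with the same number deviated from their group means together, so results are also given with the replicate number as a block where that changed a call.

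Per length of exon, Fgf4 was the most abundant of the 10 genes in control input and Fgfr1 the least. Mean RPKM (the CPM per kilobase of all annotated exons) in input control was 119 for Fgf4, 61.9 for Dusp6, 43.9 for Etv5, 42.1 for Etv4, 34.7 for Spred1, 33.5 for Spry4, 30.5 for Fos, 29.5 for Spry2, 18.6 for Egr1 and 17.1 for Fgfr1. Fgf4 lay above Dusp6 and Dusp6 above Etv5 without overlap of their 4 libraries, and Spry2 lay above Egr1 in the same way. Each pair of neighbours from Etv5 down to Spry2 overlapped, as did Egr1 and Fgfr1, so that the order of those neighbours was within the spread, while Etv5 lay above Spred1, Spry4 and Spry2 without overlap. In polysome control Dusp6 (93.5 RPKM) and Fgf4 (93.1 RPKM) overlapped at the top, Fgfr1 was in the sixth place (31.7 RPKM), and Spry4 (19.5 RPKM) and Spred1 (14.5 RPKM) were the lowest.

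**Figure D1:**
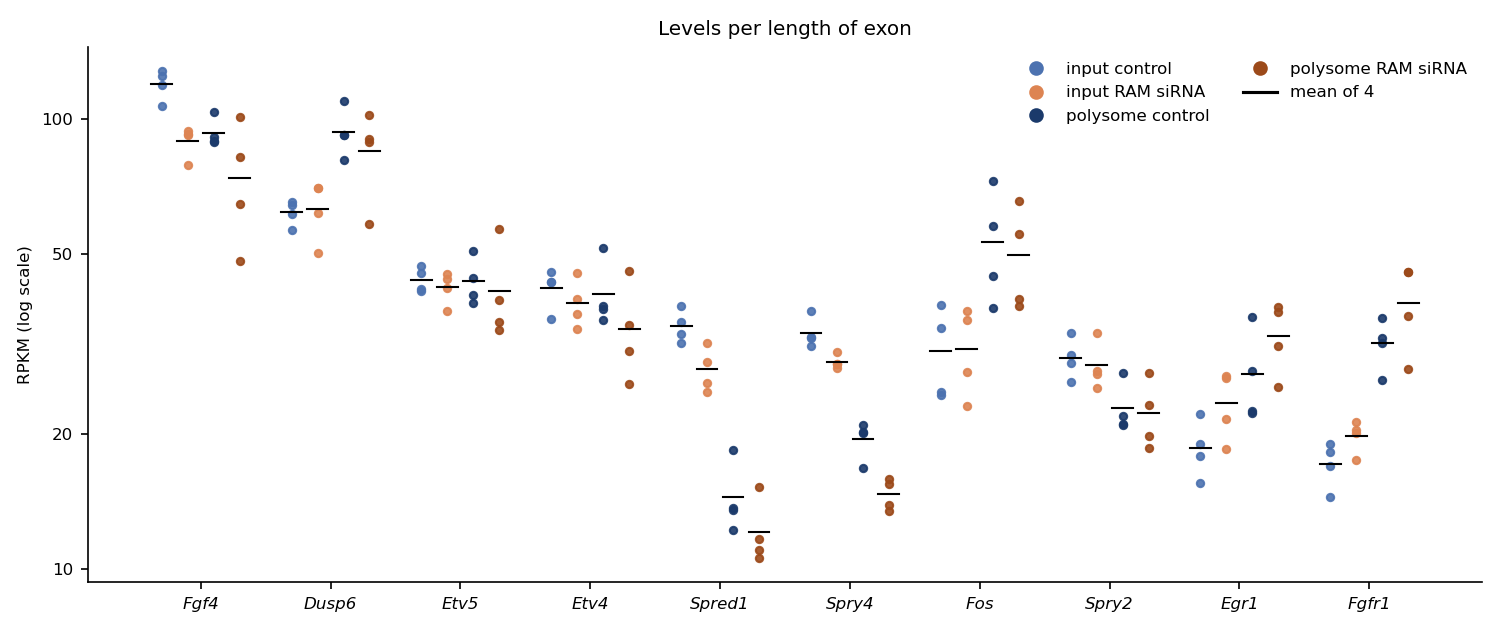
RPKM of each gene on a log axis, with a point per library, a colour per group and a line at the mean of the 4 libraries, ordered by the level in input control. Fgf4 stands highest in input control at a mean of 119 RPKM, while Fgfr1, Dusp6, Fos and Egr1 stand higher in polysomes than in input and Spry4 and Spred1 lower.

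To show the sequence in front of the ligand, of an inhibitor that fell with it and of the ERK phosphatase that did not pass the test, the 250 bases before the RefSeq start of Fgf4, Spred1 and Dusp6 are given here, 5′ to 3′ on the strand of the gene, in build GRCm38.p6. The table used held promoters of 6 of the 10 genes (Fgf4, Dusp6, Spry2, Spred1, Etv5 and Fos). Capitals mark GGGCGG (GC box) and CCAAT on either strand. They are at chr7:144861136-144861385 (+ strand), chr2:117120821-117121070 (+ strand) and chr10:99262981-99263230 (+ strand).
Fgf4: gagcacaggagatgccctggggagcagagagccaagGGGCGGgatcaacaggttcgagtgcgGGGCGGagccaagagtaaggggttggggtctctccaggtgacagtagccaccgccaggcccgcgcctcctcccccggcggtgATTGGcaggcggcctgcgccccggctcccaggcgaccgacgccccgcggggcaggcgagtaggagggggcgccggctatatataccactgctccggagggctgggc
Spred1: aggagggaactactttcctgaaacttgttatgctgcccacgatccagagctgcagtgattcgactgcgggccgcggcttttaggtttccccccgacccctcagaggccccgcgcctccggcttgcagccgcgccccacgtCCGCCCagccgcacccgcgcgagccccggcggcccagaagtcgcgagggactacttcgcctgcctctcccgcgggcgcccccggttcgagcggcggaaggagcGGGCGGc
Dusp6: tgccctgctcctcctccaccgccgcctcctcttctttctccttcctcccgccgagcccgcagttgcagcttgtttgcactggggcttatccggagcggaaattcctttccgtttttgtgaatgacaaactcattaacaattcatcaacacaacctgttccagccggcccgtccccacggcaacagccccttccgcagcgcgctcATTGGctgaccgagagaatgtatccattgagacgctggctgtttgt

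Fgf4 held GGGCGG at 214 and 188 bases and CCAAT at 106 bases before its start, Spred1 held GGGCGG at 110 and 7 bases, and Dusp6 held CCAAT at 46 bases. Among all 32851 windows of the same length, 32.7% held GGGCGG and 33.8% held CCAAT on either strand. The letters CCGGAA (the core bound by ETS factors such as ETV4 and ETV5), TGANTCA (bound by FOS with JUN), TGACGTCA and the CArG box of SRF were in none of the 7 windows of the 6 genes, Etv5 having a pair of starts, and in 12%, 6.75%, 1.55% and 1.47% of all windows. Fos held TGACG at 129 and 66 bases before its start, letters found in 17.8% of windows, TATAAA at 33 bases (12.4%) and GGGCGG at 74 bases. A match or its absence here describes these letters in this window only.

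With RAM siRNA, the ligand fell and the receptor did not pass the threshold. Fgf4 (ENSMUSG00000050917, chr7:144847367-144865243, + strand), the FGF that ESCs secrete, was at 379.8, 407, 396 and 340.1 CPM in input control replicates 1 to 4 and at 299.5, 294, 296 and 252 CPM in input RAM siRNA. The groups did not meet, RAM siRNA being the lower, and replicate 4 was the lowest with either siRNA. The mean went from 381 ± 29.3 to 285 ± 22.4 CPM (SD, n = 4), 74.9% of control, a log2 fold change of -0.42 (SE 0.086, adjusted p = 0.00809) with a fall in 4 of 4 replicate pairs. Fgfr1 (ENSMUSG00000031565, chr8:25513654-25575718, + strand), the main FGF receptor of ESCs, was at 167, 180.0, 187 and 143 CPM in control and at 201, 210.0, 199 and 172 CPM with RAM siRNA. Those groups overlapped at replicate 4 of RAM siRNA, although each pair was higher with RAM siRNA, and the log2 fold change was 0.20 (SE 0.096, adjusted p = 0.190). With the replicate block it passed the threshold (adjusted p = 8.45e-04 in edgeR). Exons of Fgfr1 share 164 bases with Gm16159 on the other strand, and the strand setting of the counting is not given in the sources used here.

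Of the Sprouty and Spred inhibitors, Spred1 fell. Spred1 (ENSMUSG00000027351, chr2:117121374-117182279, + strand), which holds RAS in check with neurofibromin, was at 240.4, 261, 225 and 216 CPM in input control. In input RAM siRNA it was at 196, 215, 176 and 167 CPM. The groups just failed to meet, with the lowest control library next to the highest RAM siRNA library, and replicate 2 was the highest with either siRNA. The mean fell from 236 ± 19.6 to 189 ± 21.5 CPM, 80.1% of control (log2 fold change -0.32, SE 0.094, adjusted p = 0.0406), in 4 of 4 pairs. This call was lost without input control replicate 1 (adjusted p = 0.110), control replicate 2 (0.128), RAM siRNA replicate 1 (0.0804) or RAM siRNA replicate 3 (0.0944), each by edgeR.

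Spry4 (ENSMUSG00000024427, chr18:38586247-38601415, - strand), an inhibitor between receptor and RAS, was at 155, 148, 177 and 156 CPM in control and at 133, 145, 136 and 136 CPM with RAM siRNA. These groups did not overlap either, but the log2 fold change of -0.22 (SE 0.074) gave an adjusted p of 0.0766, and 0.00180 with the replicate block. Spry2 (ENSMUSG00000022114, chr14:105891947-105896819, - strand), a relative of Spry4, was at 54.4 to 69.6 CPM in control and at 52.6 to 69.8 CPM with RAM siRNA. Those ranges lay on top of each other, and the log2 fold change was -0.06 with a 95% interval from -0.27 to 0.15 (adjusted p = 0.735).

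Dusp6 (ENSMUSG00000019960, chr10:99263231-99267489, + strand), the cytoplasmic ERK phosphatase, was at 205, 192, 177 and 201 CPM in input control and at 193, 219.9, 158 and 219.5 CPM in input RAM siRNA. The RAM siRNA libraries lay on both sides of the control libraries, and replicate 3 was the lowest with either siRNA. Its log2 fold change was 0.02 with a 95% interval from -0.20 to 0.24 (adjusted p = 0.905). The ETS factors were close to control as well: Etv4 (ENSMUSG00000017724, chr11:101769742-101785371, - strand) had a log2 fold change of -0.11, with an interval from -0.33 to 0.10 (adjusted p = 0.512). For Etv5 (ENSMUSG00000013089, chr16:22381309-22439719, - strand) it was -0.06, with an interval from -0.23 to 0.11 (adjusted p = 0.665). Etv4 was lower with RAM siRNA in 4 of 4 pairs and Etv5 in 3 of 4.

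Neither of the immediate early genes, which are transcribed within minutes of ERK activation, passed the main test. Egr1 (ENSMUSG00000038418, chr18:34859823-34864984, + strand), a zinc finger factor, was at 69.6, 79.8, 99.2 and 85.1 CPM in input control and at 82.8, 96.4, 119 and 121 CPM in input RAM siRNA. The groups overlapped, as replicate 3 of control lay above replicates 1 and 2 of RAM siRNA, while each RAM siRNA library was above the control library of its own number. The log2 fold change was 0.32 (SE 0.13, adjusted p = 0.124), and with the replicate block the rise passed the threshold (adjusted p = 2.34e-05). Fos (ENSMUSG00000021250, chr12:85473890-85477273, + strand), the partner of JUN in AP-1, was at 57.2 to 90.7 CPM in control and at 54.0 to 87.9 CPM with RAM siRNA. It had the largest spread of the 10 genes in input control (CV 23.2%), and its log2 fold change was 0.02 with an interval from -0.36 to 0.39 (adjusted p = 0.966).

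**Figure D2:**
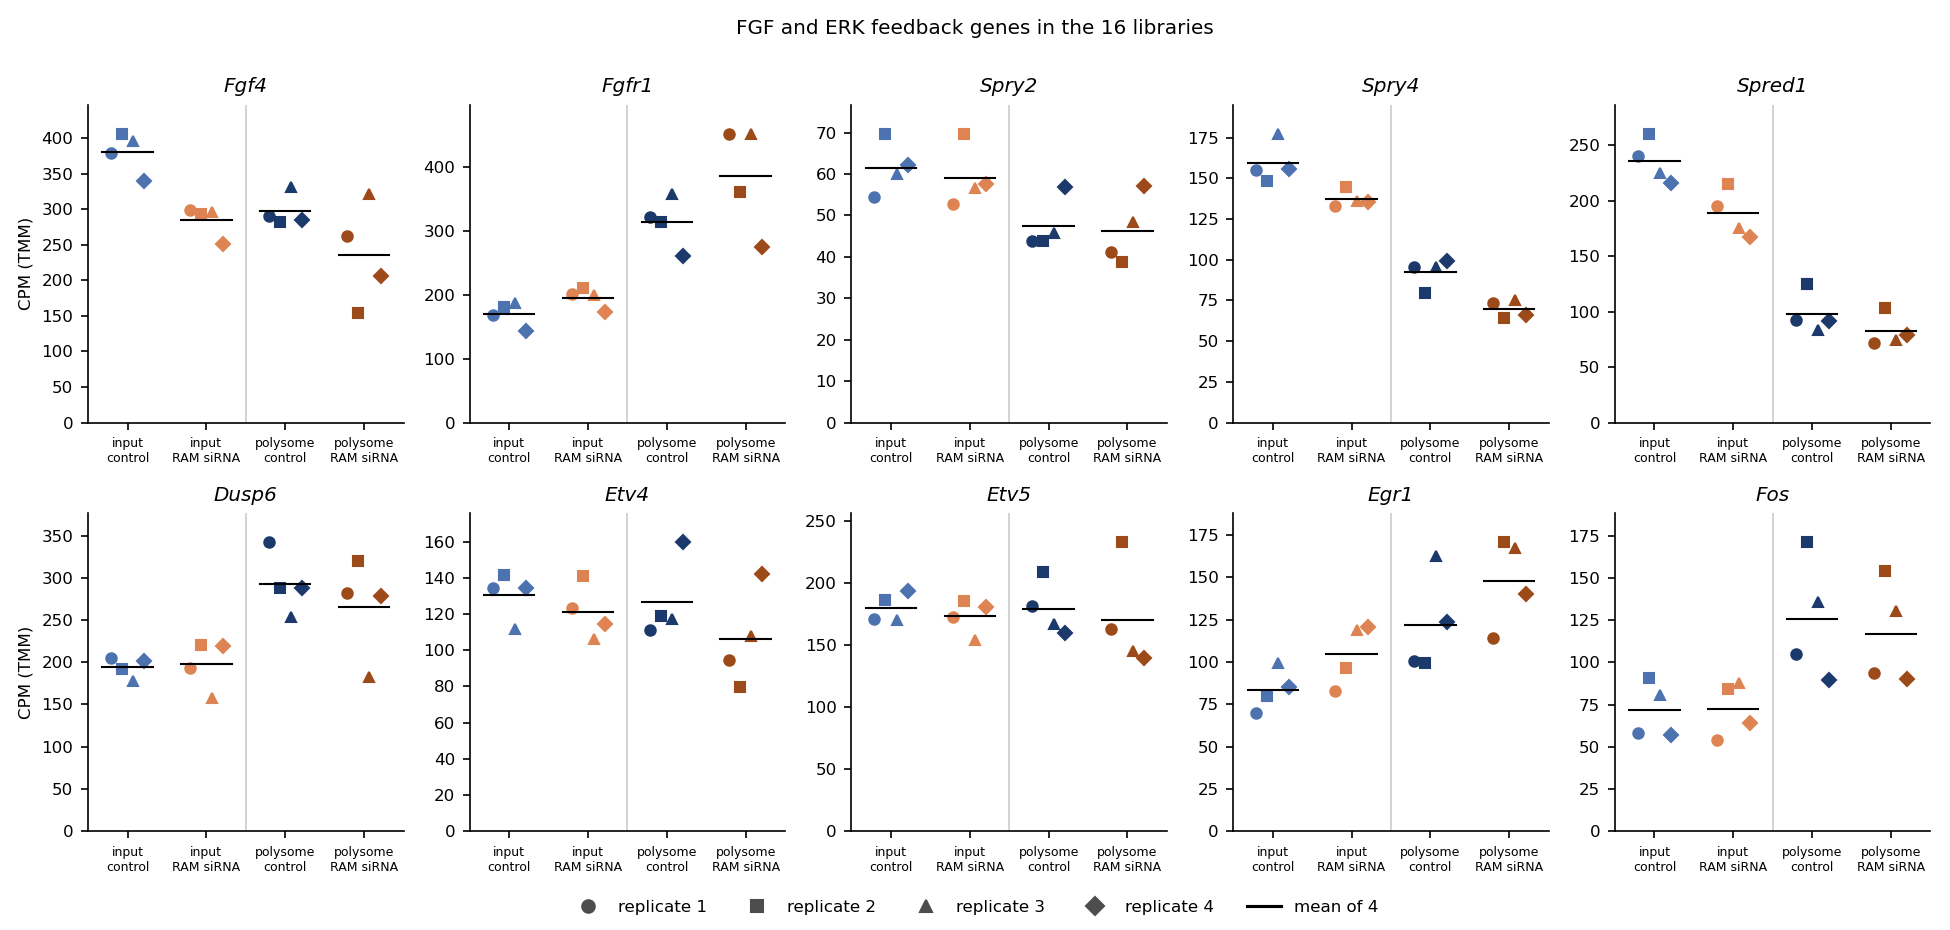
CPM of the 10 genes in the 16 libraries, with a panel per gene, a column per group, a marker shape per replicate number and a line at the group mean; each axis starts at 0. In input, the RAM siRNA libraries of Fgf4, Spry4 and Spred1 sit below all control libraries. Those of Spry2, Etv5 and Fos overlap the control libraries, and those of Dusp6 lie on both sides of them.

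Counted together, 2 of the 10 genes were called in input, both lower, where 5.94% of all 12805 genes were called lower and 6.95% higher. With the replicate block 5 were called, Fgf4, Spred1 and Spry4 lower and Egr1 and Fgfr1 higher, where 19.0% of all genes were called lower and 20.3% higher. The median log2 fold change of the 10 was -0.06 against 0.0007 over all genes tested, and 6 of 10 were below 0. In a single edgeR fit over all 16 libraries, where input and polysomes share 1 estimate of the spread, the calls of Fgf4 (adjusted p = 0.339) and Spred1 (0.444) were lost at like log2 fold changes (-0.42 and -0.32). Within replicates 1 and 2 alone Fgf4 was at -0.41 and Spred1 at -0.29, both called (7.84e-04 and 0.0106), and within replicates 3 and 4 alone, where no gene was called, not even Ramac, they were at -0.43 and -0.36. For 3 of the 10 (Fgf4, Spry4 and Spred1) the 4 RAM siRNA libraries did not overlap the 4 control libraries, which held for 18.0% of all genes tested. For each of these 3, a two-sided exact permutation test of 4 against 4 libraries gave p = 0.0286, the smallest it can give. Groups without overlap always give this value, so it adds nothing to the lack of overlap.

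**Figure D3:**
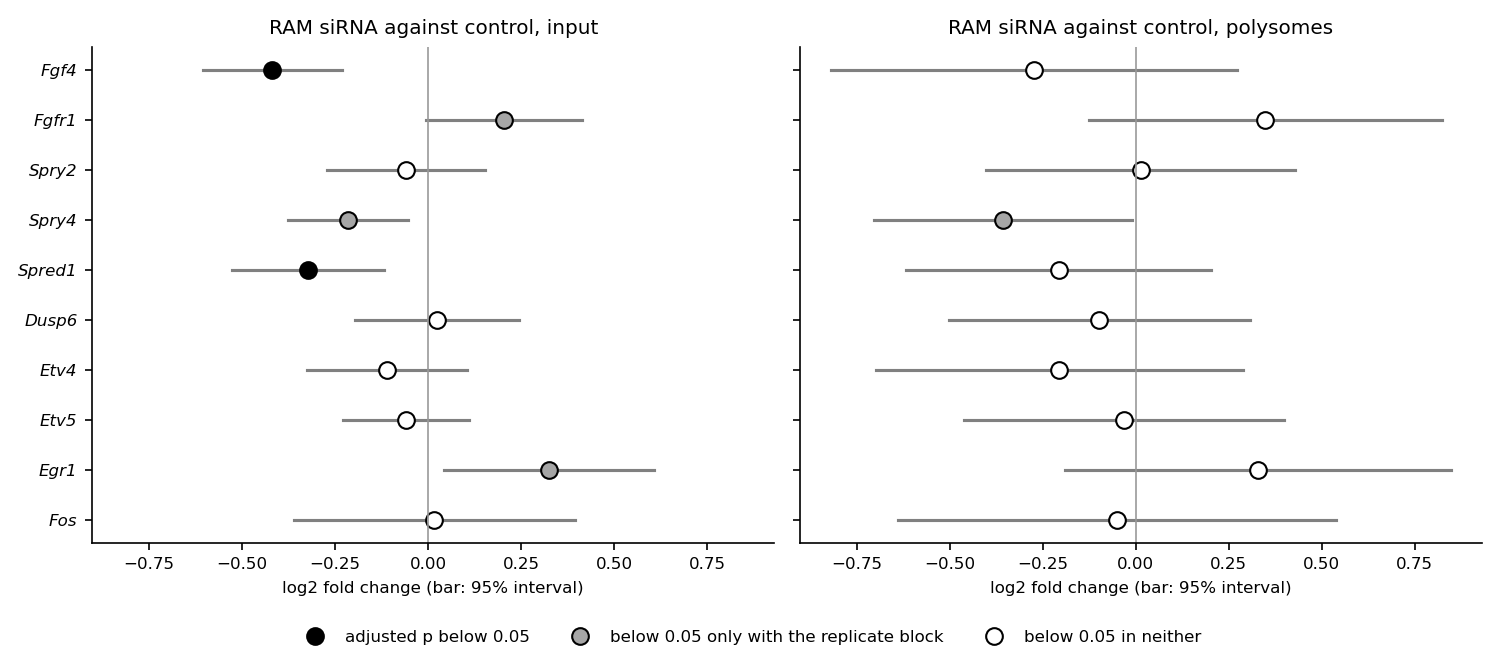
Log2 fold change of RAM siRNA against control in input (left) and polysomes (right), with a bar for the 95% interval; black points passed the threshold, grey points passed it with the replicate block alone, and open points did neither. Fgf4 and Spred1 are black in input, Fgfr1, Spry4 and Egr1 are grey, and in polysomes Spry4 alone is grey.

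Fgf4 and Spred1 also shared a short word in the 3′ UTR. The word ACTATC was picked earlier from these same data, as one that genes lower with RAM siRNA often hold, so its link with the fall is no independent support. It was in the 3′ UTR of 2236 of the 12068 tested genes with an annotated 3′ UTR (18.5%), in 40.3% of the genes called lower in input and in 12.0% of those called higher. Of the 10 genes, Fgf4, Spred1 and Etv4 held it, Fgf4 with a further A (ACTATCA, in 7.13% of genes). Genes with ACTATCA had a median log2 fold change of -0.10 and those without it of 0.005. Its part in the changes was not tested. The 27 bases around the word, in capitals, are shown for these 3 genes and for the 3 pathway genes with the largest falls described further on, at chr7:144863178-144863204 (+ strand), chr2:117179534-117179560 (+ strand), chr11:101770234-101770260 (- strand), chr9:64185787-64185813 (- strand), chr3:89428883-89428909 (+ strand) and chr16:84861099-84861125 (+ strand) of GRCm38.
Fgf4: ttctttcttcACTATCAaagatatggg
Spred1: tatatataacACTATCtgtctgtaaaa
Etv4: tcagagctccACTATCccatctgatac
Map2k1: taataaaaatACTATCAagttaaaata
Shc1: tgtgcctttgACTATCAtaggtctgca
Gabpa: taattactaaACTATCAggttattaat

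The other genes of the FGF and ERK pathway were taken from 8 lists of 119 further genes, of which 109 were tested. In input 14 of the 109 were called, 8 lower and 6 higher, against the 5.94% and 6.95% of all genes, and the median log2 fold change was -0.04. With the replicate block 24 were lower and 25 higher, where 19.0% of all genes were lower and 20.3% higher. In that order, these held 4 and 3 of the kinases, 3 and 0 of the adaptors and 6 and 1 of the feedback inhibitors and other regulators. They also held 5 and 4 of the ERK substrates and ETS factors and 4 and 4 of the immediate early genes. Of the output genes they held 1 and 2, and of the ligands 0 and 1. The FGF ligands outside Fgf4 were low: 6 of 13 were tested and none called, and the most abundant of them, Fgf21, was at 4.90 ± 1.12 CPM in input control.

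Among the kinases, which carry the signal from RAS to ERK, 2 of 14 were called lower and 1 higher, against 5.94% and 6.95% of all genes. Map2k1, which encodes the kinase MEK1, fell from 77.3 ± 7.13 to 47.3 ± 4.74 CPM (log2 fold change -0.71, SE 0.087, adjusted p = 4.53e-04). Mapk3, which encodes ERK1, rose from 15.1 ± 2.69 to 25.0 ± 4.13 CPM (0.73, SE 0.14, adjusted p = 0.00579). Of the 10 adaptors and RAS activators, Shc1, which links receptors to GRB2, fell from 139.6 ± 10.8 to 95.3 ± 6.10 CPM (-0.55, SE 0.078, adjusted p = 9.58e-04), and the most abundant, Gab1, was at -0.03. The 20 receptors and co-receptors had a single call: Sdc1, a heparan sulfate proteoglycan, lower (-0.36, adjusted p = 0.00716), named here after its value was seen. With the replicate block 10 of these 20 were higher and 1 lower, against 20.3% and 19.0% of all genes, and their median log2 fold change was 0.18. Sulf2, which trims heparan sulfate and was the most abundant of them, was at 0.06.

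A list of feedback inhibitors and other regulators held 19 further tested genes. Of these, 3 were called lower and none higher, against 5.94% and 6.95% of all genes. With the replicate block 6 were lower and 1 higher, against 19.0% and 20.3%. Rasa3, a RAS GTPase activator, had a log2 fold change of -0.46 (adjusted p = 0.0117), Dusp1, a nuclear MAPK phosphatase, of -0.45 (adjusted p = 0.0475) and Lgals3 of -0.44 (adjusted p = 0.0233), all at 20.5 CPM or less in control input. The calls of Dusp1 and Lgals3 were lost in 10 and 6 of 17 alternatives. Erf, the most abundant of them and an ETS repressor that ERK removes from the nucleus, was at -0.03 (adjusted p = 0.898). Of 16 ERK substrates and ETS factors, Gabpa fell from 226 ± 11.8 to 159 ± 10.6 CPM (-0.51, SE 0.075, adjusted p = 0.00128) and Mknk2, a kinase of the cap-binding factor eIF4E, rose (0.36, SE 0.067, adjusted p = 0.00491).

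Of 21 other immediate early genes, 3 were called higher and none lower, against 6.95% and 5.94% of all genes, and 4 in each direction with the replicate block, against 20.3% and 19.0%. Ccn2, a matricellular protein, went from 383 ± 31.1 to 921 ± 132 CPM, the largest change of the pathway lists (log2 fold change 1.26, SE 0.11, adjusted p = 6.13e-05). Ccn1, its relative, rose by 0.52 (adjusted p = 0.00297) and Egr2 by 0.56 (adjusted p = 0.0154, at 4.80 CPM in control), while Mcl1, the most abundant, was at -0.10 (adjusted p = 0.420). Ccn1 and Ccn2 are also targets of YAP and SRF, and Egr2 is a relative of Egr1. Of 5 other output genes Ccnd1, which encodes cyclin D1, rose from 12.1 ± 3.58 to 19.8 ± 4.82 CPM (0.71, adjusted p = 0.0334), and Epha2, the most abundant, was at 0.20 (adjusted p = 0.298, and 0.00167 with the replicate block). Exons of Ccn2, Ccnd1, Gabpa and Dusp1 overlap genes on the other strand by 11 to 1100 bases. In the single fit over all 16 libraries Map2k1, Shc1 and Ccn2 were called, while Gabpa (adjusted p = 0.186), Rasa3 (0.237), Dusp1 (0.196), Lgals3 (0.111), Mapk3 (0.169), Ccnd1 (0.105), Egr2 (0.0700), Ccn1 (0.250) and Mknk2 (0.293) were not. Of the 10 genes called lower over these lists and the 10 feedback genes, 7 held ACTATC in the 3′ UTR, and of the 6 called higher 1 did (Ccn2), beside 40.3% and 12.0% of all genes called lower and higher and 18.5% of all genes. As the word was picked from these data on genes called lower, nothing is read from this.

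**Figure D4:**
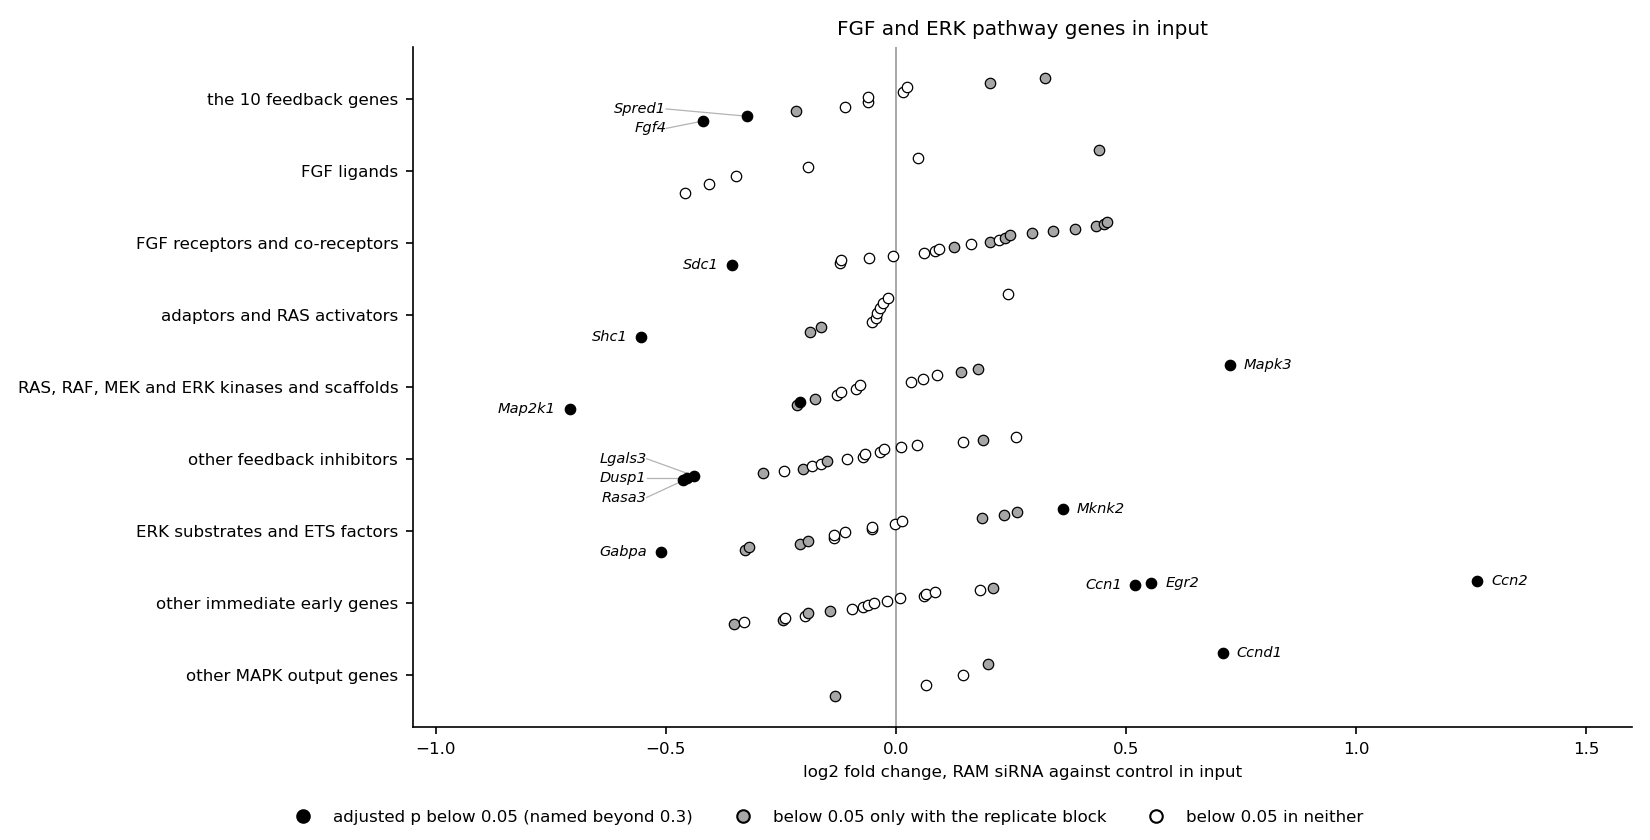
Log2 fold change of RAM siRNA against control in input for the 10 feedback genes and the 8 pathway lists, with a point per gene; black points passed the threshold and are named where the log2 fold change was beyond 0.3 in either direction, grey points passed it with the replicate block alone, and open points did neither. Ccn2 stands farthest to the right at 1.26 and Map2k1 farthest to the left at -0.71, with most genes of every list between -0.5 and 0.5.

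The share of a transcript in the polysome RNA was compared with its share of the input in control cells. Input RNA was purified with Trizol and polysome RNA with phenol and chloroform followed by lithium chloride, so that fraction and purification cannot be told apart here. Of the 10 genes 4 were called lower in polysomes, 4 higher and 2 neither, where 34.3% of all genes were called lower and 33.1% higher. Fgfr1 was the highest, at 321, 313, 357 and 260.3 CPM in polysome control against 143 to 187 CPM in input (log2 fold change 0.85, SE 0.14, adjusted p = 1.84e-04). Every polysome library lay above every input library. Fos followed (0.78, SE 0.22, adjusted p = 0.00787), then Dusp6 (0.56, SE 0.12, adjusted p = 0.00151) and Egr1 (0.51, SE 0.18, adjusted p = 0.0232), each higher in polysomes in 4 of 4 cultures.

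All 3 Sprouty and Spred genes were lower in polysomes than in input. Spred1 was at 92.7, 125, 83.0 and 91.8 CPM in polysome control against 216 to 261 CPM in input, a log2 fold change of -1.30 (SE 0.15, adjusted p = 1.51e-05), the largest of the 10. Its polysome libraries lay far below its input libraries. Spry4 was at 79.6 to 99.4 CPM in polysomes (-0.82, SE 0.12, adjusted p = 8.62e-05) and Spry2 at 43.7 to 57.0 CPM (-0.41, SE 0.13, adjusted p = 0.0158). Fgf4 was also lower, by 0.39 on the log2 scale (SE 0.12, adjusted p = 0.0114). For the ETS factors the log2 fold change was -0.08 for Etv4 (95% interval -0.40 to 0.25) and -0.04 for Etv5 (-0.30 to 0.22), neither past the threshold. Without a filter on low counts the calls of Fgf4 (log2 fold change -0.25, adjusted p = 0.182) and Spry2 (-0.27, adjusted p = 0.141) were lost in edgeR. Spry2 was also lost without input control replicate 2 (0.0609), and Egr1 without input control replicate 1 (0.0744) or 2 (0.0592) or polysome control replicate 3 (0.0543).

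A like order was seen in RAM siRNA cells. Their libraries are others than those of the control cells, but libraries of the same replicate number deviated together. The difference in purification was also shared. Fgfr1 (log2 fold change 0.99, SE 0.21, adjusted p = 0.00266) and Fos (0.70, SE 0.24, adjusted p = 0.0275) were higher in polysomes, and Spry4 (-0.96, SE 0.15, adjusted p = 5.26e-04) and Spred1 (-1.19, SE 0.18, adjusted p = 3.69e-04) were lower. These were 2 genes in each direction, where 25.9% of all genes were called lower and 27.3% higher. Egr1 (0.51, adjusted p = 0.0536) and Dusp6 (0.43, adjusted p = 0.0933) fell short and passed with the replicate block (adjusted p = 0.0286 and 0.0453), which made 2 lower and 4 higher where 29.9% of all genes were lower and 28.8% higher. Fos was lost without input RAM siRNA replicate 1 (adjusted p = 0.0885) or 4 (0.0756) or polysome RAM siRNA replicate 3 (0.0695). Fgf4 was at -0.25 (adjusted p = 0.407) in these cells, and -0.11 without polysome replicate 2.

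**Figure D5:**
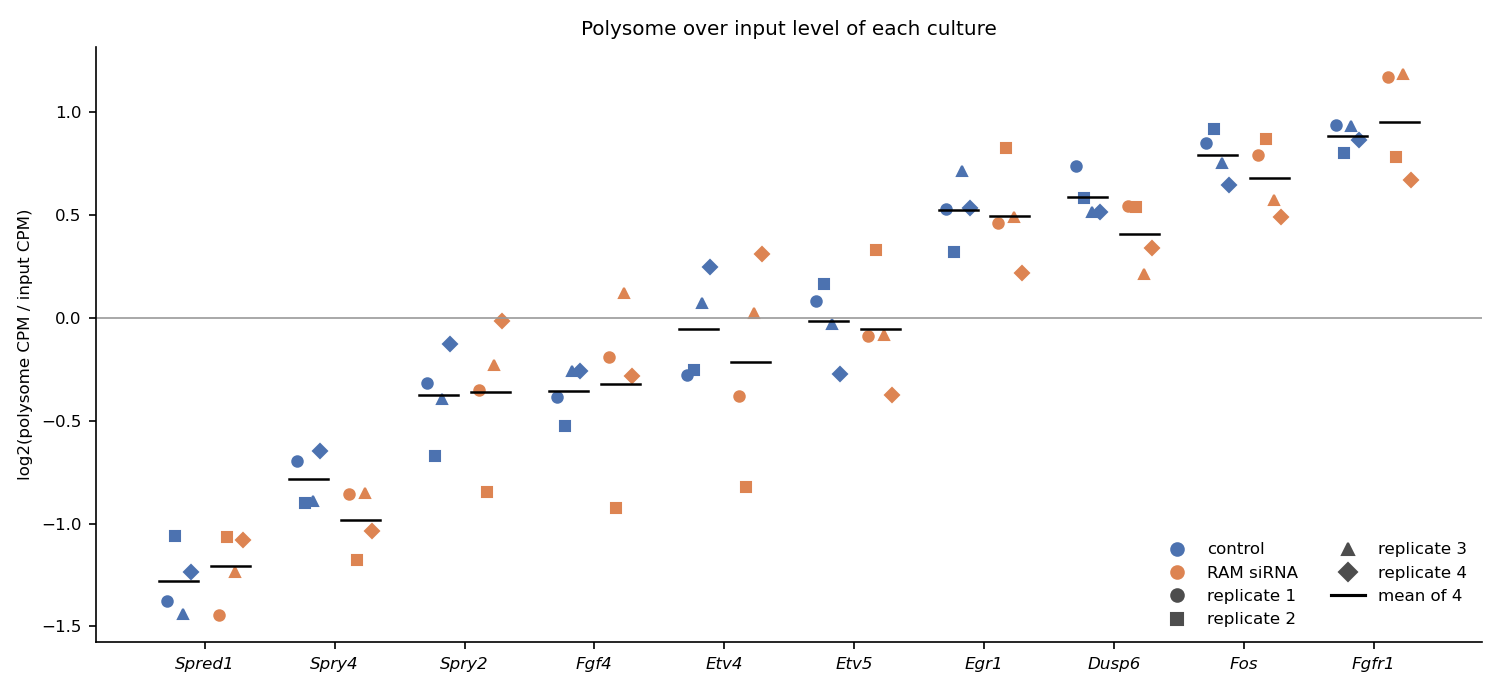
Log2 ratio of the polysome to the input CPM of each culture, control in blue and RAM siRNA in orange, with a marker shape per replicate number and a line at the mean of 4; genes are ordered by the control mean. Spred1 sits lowest in both, with control means of -1.28, and Fgfr1 highest, at 0.88, and the ranges of RAM siRNA and control overlap for all 10 genes.

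In the pathway lists 38 of 109 genes were lower in polysomes and 34 higher in control cells, close to the 34.3% and 33.1% of all genes. The largest differences past the threshold were those of Elk4, an SRF partner (log2 fold change -2.39, SE 0.23, adjusted p = 5.57e-06), and Spred3 (-2.02, SE 0.24, adjusted p = 2.23e-05) on one side and Ext2, which builds heparan sulfate (1.27, SE 0.14, adjusted p = 1.28e-05), and the ligand Fgf21 (1.26, SE 0.26, adjusted p = 0.00128) on the other. Spred3, a Spred family member like Spred1, was at 4.33 ± 0.90 CPM in control input. Among the receptors and co-receptors 12 of 20 were higher in polysomes and 2 lower, and among the adaptors and RAS activators 2 of 10 were higher and 6 lower. In RAM siRNA cells 29 of the 109 were lower in polysomes and 24 higher, where 25.9% and 27.3% of all genes were.

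Within polysomes none of the 10 genes passed the threshold between RAM siRNA and control, where 3 genes of 12805 (0.0234%), all lower, did. At an unadjusted p under 0.05 there were 1152 genes by edgeR, 1 of them (Spry4) among the 10. Spry4 was at 95.5, 79.6, 95.7 and 99.4 CPM in control and at 73.5, 63.9, 75.3 and 66.1 CPM with RAM siRNA. It was the only member whose polysome groups did not overlap, which held for 6.56% of all genes tested. Its log2 fold change was -0.36 (SE 0.15, adjusted p = 0.534), with p = 0.0286 in the two-sided exact permutation test of 4 against 4 libraries, which restates the lack of overlap. With the replicate block Spry4 was called (adjusted p = 0.0375 in edgeR), where 4.97% of all genes were lower and 9.68% higher.

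Fgf4 was at 291, 283, 331 and 285 CPM in polysome control and at 262, 155, 322 and 207 CPM in polysome RAM siRNA. All 4 pairs were lower with RAM siRNA, but replicate 3 differed by little and replicate 2 by far the most, and the log2 fold change was -0.27 (SE 0.24, adjusted p = 0.897). Without RAM siRNA replicate 2, the library that stood farthest out, it was -0.11. Fgfr1 (0.35, SE 0.21) and Egr1 (0.33, SE 0.23) were higher and Spred1 (-0.21, SE 0.18) and Etv4 (-0.21, SE 0.22) lower in 4 of 4 pairs, with adjusted p from 0.741 to 0.938. With a library left out, Fgfr1 ran from 0.23 to 0.46 and Egr1 from 0.22 to 0.53. Spred1 then ran from -0.32 to -0.081 and Etv4 from -0.39 to -0.082. The median log2 fold change of the 10 was -0.07, against 0.06 over all genes tested. As polysome libraries fell apart by replicate number, replicates 1 and 2 and replicates 3 and 4 were also taken apart. The value used was the mean over replicate pairs of the log2 ratio of RAM siRNA to control CPM. It was -0.51 and -0.25 for Fgf4, 0.35 and 0.21 for Fgfr1, -0.35 and -0.47 for Spry4, -0.32 and -0.18 for Spred1, -0.40 and -0.14 for Etv4, and 0.48 and 0.11 for Egr1, in that order. It was -0.13 and 0.04 for Spry2, -0.06 and -0.26 for Dusp6, -6.24e-05 and -0.20 for Etv5, and -0.16 and -0.02 for Fos. The sign differed between the pairs of replicates for Spry2, and in the edgeR fits within each pair for Spry2, Etv5 and Fos.

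Of the 109 pathway genes none was called in polysomes, and with the replicate block 8 were lower and 12 higher, where 4.97% and 9.68% of all genes were, with a median log2 fold change of 0.05 in the main fit. Among those called in input, Map2k1 was at -0.93 (SE 0.14) in polysomes, Shc1 at -0.73 (SE 0.14), Gabpa at -0.55 (SE 0.22), Mapk3 at 0.95 (SE 0.30) and Ccn2 at 1.37 (SE 0.29), each on the log2 scale and each past the threshold with the block alone.

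A change with RAM siRNA in the share of a transcript in the polysome RNA, beyond that in input, was tested over all 16 libraries. The test was the interaction of siRNA and fraction. As CPM is a share of a library, a change in loading common to all transcripts is not seen here. The paper reports a lower ratio of polysomes to monosomes after RAM suppression. None of the 10 genes was called and none had an unadjusted p under 0.05. None of the 109 pathway genes was called either. Over all genes 0% were called by edgeR, with 100 at an unadjusted p under 0.05 and 1 gene called by DESeq2. With all 16 libraries the largest estimates were -0.19 for Spry4 (95% interval -0.53 to 0.14) and -0.17 for Dusp6 (-0.66 to 0.33). For Fgf4 the difference was 0.09 (-0.44 to 0.61) and for Spred1 0.07 (-0.39 to 0.52). The widest interval was that of Fos, from -0.83 to 0.59, and a change in loading within it is not excluded by these libraries. Without polysome RAM siRNA replicate 2 the order changed. Fos (-0.28), Dusp6 (-0.27), Fgf4 (0.24) and Etv5 (-0.21) were then farther from no change than Spry4 (-0.16).

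The spread between libraries was shared within replicate numbers. The median CV over the 4 libraries of a group was 9.19% for the 10 genes in input control, against 9.10% for all genes tested, and 22.0% against 27.7% in polysome RAM siRNA. After the group means were taken out, Spry2 and Etv4 varied most alike over the 16 libraries (Pearson r = 0.85, and 0.54 over the 8 input libraries), followed by Spred1 with Etv5 (0.71, and 0.25 in input) and Fgf4 with Fgfr1 (0.64, and 0.94 in input), while Fgf4 and Dusp6 varied in opposite ways (-0.73, and -0.48 in input). These values are descriptions over libraries that share replicate numbers and depth.

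The genes whose log2 CPM followed a member most closely over the 8 input libraries were found for the phosphatase, an inhibitor, an ETS factor and an immediate early gene, as Pearson r, which includes the difference between siRNAs. For Dusp6 they were Msh3 (r = 0.96), Zfp35 (0.95) and Mrps28 (0.95), and for Spry4 Wasf2 (0.98), Foxo3 (0.97) and Ago2 (0.96). For Etv4 they were Usp7 (0.98), 4933427D14Rik (0.97) and Epas1 (0.97), and for Egr1 Tdrkh (0.97), Flywch2 (0.96) and Plk3 (0.95). These were the highest r of 12805 genes over no more than 8 libraries.

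Markers of other cell types were low or divided in direction. Of 10 primitive endoderm markers 7 passed the filter, with a summed level of 1007 ± 124 CPM in input control and 862 ± 156 CPM in input RAM siRNA; Lama1 made up most of it, while Gata6 and Dab2 were called higher, and with the replicate block 4 were higher and 2, Lama1 and Sox7, lower. Of 10 neural markers 5 passed (81.8 ± 5.09 and 88.8 ± 5.91 CPM), none was called in the main fit, Nes was higher and Pax6 lower with the block, and Fabp7 had no count in any library. Of 10 mesoderm markers 2 passed (19.7 ± 0.79 and 16.8 ± 0.91 CPM), with none called in the main fit and Eomes lower with the block. Of 10 fibroblast markers 2 passed (13.4 ± 1.01 and 17.7 ± 1.98 CPM), Pdgfrb being called higher and S100a4 without a count in any library. Of 10 trophoblast markers 4 passed (65.2 ± 3.98 and 55.7 ± 4.81 CPM), with Tfap2c called lower. Over all genes tested 5.94% were called lower and 6.95% higher, and 19.0% and 20.3% with the block. The ESC marker sum fell in the same libraries in which Fgf4 and Spred1 were lower, and its part in their change was not tested.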

How the data were processed

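RNA from 16 libraries (TruSeq stranded, total RNA depleted of ribosomal RNA) was analysed as a single table of raw counts per gene, made and deposited by the authors. Per the labels and the submitters' processing notes, reads were aligned with STAR 2.5.1b to mm10 and counted with HTSeq; the strand setting is not given in the sources used here. The paper describes the polysome experiment as 4 independent occasions, while the labels give numbers only. The table held 46983 genes and 0 columns of other samples. All rows named a gene.

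A gene was tested if 10 or more of the 16 libraries reached 1 CPM (12805 genes). Each comparison was fitted in edgeR (version 4.0.16, R version 4.3.3) by quasi-likelihood as the main test, after TMM scaling, on its own 8 libraries and, for the interaction, over all 16, with Benjamini-Hochberg adjustment over all genes tested and a threshold of 0.05. Intervals are 95% t intervals of the fit. Exact permutation tests were two-sided over 4 against 4 libraries. RPKM used the union of exons of GENCODE vM21 (GRCm38), which also gave positions and 3′ UTRs; promoters came from RefSeq. The procedure was tested on simulated data.

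Libraries with the same replicate number deviated together: the correlation of their deviations from the group means, across the genes whose average reached 10 CPM, was 0.40 to 0.80 in input and 0.62 to 0.94 in polysomes, and 0.24 to 0.71 between the input and polysome libraries of a culture. A fit with the number as a block was therefore run beside the main one.

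The 10 genes, the pathway lists, the marker lists and the 3′ UTR words were chosen with earlier results of these data known. Genes named outside the 10 were, by rule, at most the 6 largest falls and 6 largest rises past the threshold in the pathway lists in input, the most abundant gene of each list (not reported here for the kinases), the 2 largest differences in each direction between polysomes and input, and the 3 genes most like Dusp6, Spry4, Etv4 and Egr1. Sdc1 and the marker genes given were named after their values were seen. Of the pathway symbols, 119 of 120 matched the table. Alternatives were RLE factors, no filter, filterByExpr, DESeq2 1.42.0, limma-voom (limma 3.58.1), the replicate block, 1 fit over 16 libraries, replicates 1 and 2 or 3 and 4 alone, and leaving out each library.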

Additional observations from a re-analysis of the deposited data

Results flagged for a closer look

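Among 44 groups of 4 libraries (the 10 genes and Ramac), 5 held a library far from the other 3. How often this arises by chance was not measured, and the groups share libraries that deviate together. Fgf4 was lowest in input RAM siRNA replicate 4 at 252 CPM, against 294 to 299.5 CPM in the others, and highest in polysome control replicate 3 at 331 CPM, against 283 to 291 CPM. In polysome control replicate 4, Spry2 was at 57.0 CPM, against 43.7 to 45.7 CPM, and Etv4 at 159.8 CPM, against 111 to 119 CPM. Ramac was lowest in input RAM siRNA replicate 2 at 2.67 CPM, against 3.11 to 3.17 CPM. Without input RAM siRNA replicate 4 Fgf4 fell by 0.36 on the log2 scale in input and passed the threshold (adjusted p = 0.00571 in edgeR).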

How the results depend on the processing

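Over the alternatives, 1281 values were judged unchanged, and the rest are grouped here. For a log2 fold change, unchanged means the same direction and the same side of the threshold. The 1281 also hold counts of genes called, which could differ from the main count. An example is 8584 against 6823 genes between polysomes and input in RAM siRNA cells, without polysome replicate 2. The cause of a change was not tested unless fewer libraries or genes entered. Genes called in input numbered 1651, 5028 with the replicate block, 186 in 1 fit over 16 libraries, 2629 within replicates 1 and 2, 0 within replicates 3 and 4 and 913 to 2506 with a library left out; of the 10 genes these held 2, 5, 0, 3, 0 and 1 to 2. In polysomes 3 genes were called, 39 with no filter, 18 with filterByExpr, 300 by DESeq2, 1875 with the block, 453 in 1 fit over 16 libraries, 0 within either pair of replicates and 0 to 48 with a library left out, 48 being the count without RAM siRNA replicate 2; of the 10 genes Spry4 was called with the block and none otherwise. For loading, 0 genes were called by edgeR, 1 by DESeq2 and 2 with a replicate block within each fraction. With a library left out, 6 to 8 of the 10 genes were called between polysomes and input in control cells and 3 to 5 in RAM siRNA cells. Apart from the calls given in the report, the replicate block changed no call of the 10 genes.

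Further calls of the 10 genes appeared in input for Egr1 with no filter (adjusted p = 0.0404), Spry4 by DESeq2 (0.0392) and Fgfr1 within replicates 1 and 2 (0.0167, edgeR). In RAM siRNA cells Egr1 was called between polysomes and input with RLE, no filter, filterByExpr and DESeq2 (0.0201 to 0.0418). It was also called without polysome replicate 1 (0.0348, edgeR). In the same cells Dusp6 was called without polysome replicate 3 (0.0371) and Spry2 without polysome replicate 4 (0.0315).

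Log2 fold changes that crossed 0 were small. In input they were Dusp6 with no filter (-0.0015) and in replicates 3 and 4 (-0.0090), Fos with no filter (-0.010), filterByExpr (-0.00082) and replicates 1 and 2 (-0.11), and, within replicates 1 and 2, Etv5 (0.0021), Gab1 (0.014) and Fgf21 (-0.025), and within replicates 3 and 4 Sulf2 (-0.0071). In polysomes they were Spry2 with RLE (-0.0040), no filter (-0.042), filterByExpr (-0.017), DESeq2 (-0.0039), 16 libraries (-0.037) and replicates 1 and 2 (-0.098), Etv5 in replicates 1 and 2 (0.051) and Fos in replicates 3 and 4 (0.029). Between polysomes and input they were, with no filter and filterByExpr, Etv4 (0.059 and 0.021) and Etv5 (0.095 and 0.058) in control cells, and Etv5 in RAM siRNA cells with RLE and DESeq2 (0.0076 for both), no filter (0.11) and filterByExpr (0.056). For loading they were Etv5 with RLE and DESeq2 (0.024 for both), no filter (0.053) and filterByExpr (0.031), and Egr1 with no filter (0.028) and filterByExpr (0.0066).

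Leaving out a library crossed 0 in input for Fos (-0.094 to 0.15), Fgf21 (-0.24 to 0.16), Spry2 (-0.15 to 0.0037), Dusp6 (-0.031 to 0.12), Gab1 (-0.057 to 0.00038), Erf (-0.10 to 0.041) and Sulf2 (-0.0066 to 0.14). It did so in polysomes for Spry2 (-0.12 to 0.10), Etv5 (-0.21 to 0.040), Fos (-0.22 to 0.12) and Dusp6 (-0.19 to 0.023), and between polysomes and input for Etv5 (-0.11 to 0.0081 in control, -0.22 to 0.058 in RAM siRNA cells). For loading it did so for Etv5 (-0.21 to 0.065), Egr1 (-0.14 to 0.13), Fos (-0.28 to 0.070), Spry2 (-0.094 to 0.13), Spred1 (-0.062 to 0.20) and Fgf4 (-0.099 to 0.24). Among the pathway genes called in input, Dusp1 fell short of the threshold in 10 of 17 alternatives, Ccnd1 in 7, Lgals3 in 6 and Egr2 in 4.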
